A study of Mus musculus with 8 samples.

Results

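Genes that fold proteins and sense their misfolding were followed in ribosome-bound RNA of Otp-lineage cells, in mice lacking the repressor gene Cic there and in mice that kept it. They are 35 genes of the endoplasmic reticulum (ER) stress response, the ER chaperones and the cytosolic heat shock response, chosen by symbol. All 35 were among the 24421 gene rows of the count tables, and all 35 had enough counts to be tested. Of these 35, 0 passed the test between KO and Control, and for no gene did all libraries of one group lie above all of the other.

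The 4 KO libraries came from C57BL/6 mice with Otp-Cre, 2 floxed copies of Cic and the ROSAfsTRAP allele, and the 4 Control libraries from C57BL/6 mice with Otp-Cre and ROSAfsTRAP and no floxed Cic. Otp-Cre acts in cells of the Otp lineage, so that Cic was deleted and ribosomes were tagged there and not in the rest of the tissue. Hypothalamus and medial amygdala were dissected, and RNA on the tagged ribosomes was purified (translating ribosome affinity purification) and amplified. The labels give neither age nor sex, nor whether a library holds 1 animal, so that p-values measure the spread between these libraries.

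The ER folds secreted and membrane proteins, and peptide-secreting neurons of the hypothalamus load it heavily. When unfolded protein builds up, 3 sensors in the ER membrane respond. IRE1 (gene Ern1) splices the mRNA of the transcription factor XBP1, PERK (Eif2ak3) slows translation and lets the transcription factor ATF4 be made, and ATF6 is cut to release a transcription factor of its own. These factors raise ER chaperones, and prolonged stress brings on CHOP (Ddit3). In the cytosol, HSF1 does the same for the heat shock chaperones of the HSP70, HSP90 and HSP40 families. Splicing of Xbp1, cleavage of ATF6 and the activity of HSF1 do not show in gene counts.

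A DNA element recognised by ATF6 with its partner NF-Y, the ER stress element, marks promoters of many ER chaperones and was looked for on both strands as CCAAT and CCACG with 9 bases of any kind between them. Promoters (250 bases before to 50 after the start, RefSeq, GRCm38.p6) were matched for 28 of the 35 genes. Those of 8 of the 12 cytosolic chaperone and heat shock genes were among them. The element lay in 7 of these 28 promoters (25.0%), those of Hspa5, Hsp90b1, Calr, Canx, Dnajc3, Creld2 and Pdia6, against 0.137% of the promoters of 27025 genes. The 250 bases before the start are shown for 3 abundant ER chaperones that carry it, with the element in capitals, since these genes are standard readouts of the pathway. Hspa5 is on the plus strand at chr2:34771840-34772089, Hsp90b1 on the minus strand at chr10:86705445-86705694 with 2 copies in opposite directions, and Calr on the minus strand at chr8:84846932-84847181.
Hspa5: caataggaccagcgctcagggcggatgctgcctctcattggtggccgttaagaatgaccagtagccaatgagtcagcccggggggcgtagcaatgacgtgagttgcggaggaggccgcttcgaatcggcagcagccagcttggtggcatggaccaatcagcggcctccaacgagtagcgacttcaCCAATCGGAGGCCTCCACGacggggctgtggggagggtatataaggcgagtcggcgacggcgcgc
Hsp90b1: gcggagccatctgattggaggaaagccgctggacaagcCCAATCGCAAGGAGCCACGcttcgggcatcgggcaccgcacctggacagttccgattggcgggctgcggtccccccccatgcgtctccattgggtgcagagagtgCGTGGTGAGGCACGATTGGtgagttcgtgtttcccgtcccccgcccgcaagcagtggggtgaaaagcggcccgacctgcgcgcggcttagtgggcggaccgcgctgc
Calr: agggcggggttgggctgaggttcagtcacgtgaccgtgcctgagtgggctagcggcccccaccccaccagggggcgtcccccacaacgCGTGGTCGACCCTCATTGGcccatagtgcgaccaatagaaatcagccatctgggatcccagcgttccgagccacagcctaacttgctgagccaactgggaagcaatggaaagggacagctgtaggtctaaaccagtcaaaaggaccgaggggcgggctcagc
The octamers TGAATGAA and TGAATGGA, which Capicua is known to bind, were in 0 of the 28 promoters and in 2.85% of all promoters. An ATF4 element searched as TGATGNAA was in those of Trib3, Asns and Herpud1 (10.7%, against 4.51% of all promoters). The heat shock element was searched as the units GAA, TTC and GAA with 2 bases between units, or TTC, GAA and TTC. Of the 28 promoters, it was in that of Hsph1 alone (3.57%, against 0.662% of all promoters). The first form in one direction is the second in the other, so these are one site. A match is a run of letters, and its absence says only that these letters are not in this window.

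The 4 KO libraries held 33223878 to 49587839 gene counts and the 4 Control libraries 38171319 to 57300362. Levels are CPM, read counts relative to the library total scaled with TMM factors, and fold changes come from edgeR's quasi-likelihood test, adjusted over the 15438 genes tested. Cic was 44.0 ± 11.0 CPM in KO and 94.2 ± 14.6 CPM in Control (mean ± SD, n = 4 each), with no overlap (a log2 fold change of -1.10 with SE 0.21, adjusted p by edgeR = 0.00220). Of all genes tested, 40 (0.259%) passed an adjusted p of 0.05 by edgeR, 0.194% higher in KO and 0.0648% lower. Otp-lineage markers summed to between 1122 and 2032 CPM in KO libraries, against 982 to 1042 CPM in Control libraries. All 8 had a positive fold change, and 0 passed. At an edgeR unadjusted p of 0.05, 6 of the 8 were higher, against 6.06% of all genes tested. The 12 oligodendrocyte markers summed to between 1708 and 3149 CPM in KO libraries, against 2704 to 3478 CPM in Control libraries. All 12 had a negative fold change, and 1 of them, Cldn11, passed. At an edgeR unadjusted p of 0.05, 8 of the 12 were lower, against 4.53% of all genes tested. With no overlap 4 were lower, against 2.91% of all genes tested. Astrocyte, microglia and vascular marker sums overlapped between the groups, no marker was at 0 in a whole group, and 0 of these 25 markers passed. Fold changes were negative for 6 of 8 astrocyte, 8 of 9 microglia and 5 of 8 vascular markers. Their medians were -0.12, -0.50 and -0.28 on the log2 scale. Aldh1l1 and Esam were lower with no overlap. Of 8 pan-neuronal markers, 6 had a positive fold change and 0 passed, with a median of 0.09 on the log2 scale. In such samples, fewer cells of a type, less RNA per cell and less RNA carried over from untagged cells cannot be told apart. How much of the folding gene levels came from untagged cells was not tested. The same holds for the Cic left in KO (46.7% of the Control mean). Whether the marker differences bear on the folding genes was not tested.

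Against that background, 0 of the 35 genes passed by edgeR, 0 by DESeq2, which gave Hspa1b and Trib3 no adjusted p, and 0 by limma. At an unadjusted p of 0.05, edgeR had 2 of the 35, both higher in KO (Hspa4 and Hsp90aa1). Of all genes tested, 10.6% passed at that level, made up of 6.06% higher and 4.53% lower. No member had groups without overlap, against 5.93% of all genes tested (3.01% higher and 2.91% lower). The fold change was positive for 22 and negative for 13, and 53.8% of all genes tested were positive. The median log2 fold change was 0.07, against 0.02 over all genes tested, and the median size without sign was 0.13, against 0.17. Only Hspa1a and Hspa1b lay beyond 0.5 on the log2 scale (5.71% of members, against 11.8% of all genes tested), and both are low, at no more than 5.39 CPM for Hspa1a and 1.81 CPM for Hspa1b.

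A p that misses the threshold does not show that levels are alike, so each difference is also given its interval. The 95% interval of the log2 fold change by limma lay within a 1.5-fold change in either direction for 27 of the 35 genes. That held for all 11 ER chaperones and cofactors, all 4 protein disulfide isomerases, 4 of the 6 sensors and their factors and 7 of the 12 cytosolic genes. The intervals of Ern1, Ddit3, Trib3, Hspa1a, Hspa1b, Hspa4, Hsp90aa1 and Hspb1 reached further. A single interval, that of Hspa4, left out 0.

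**Figure D1:**
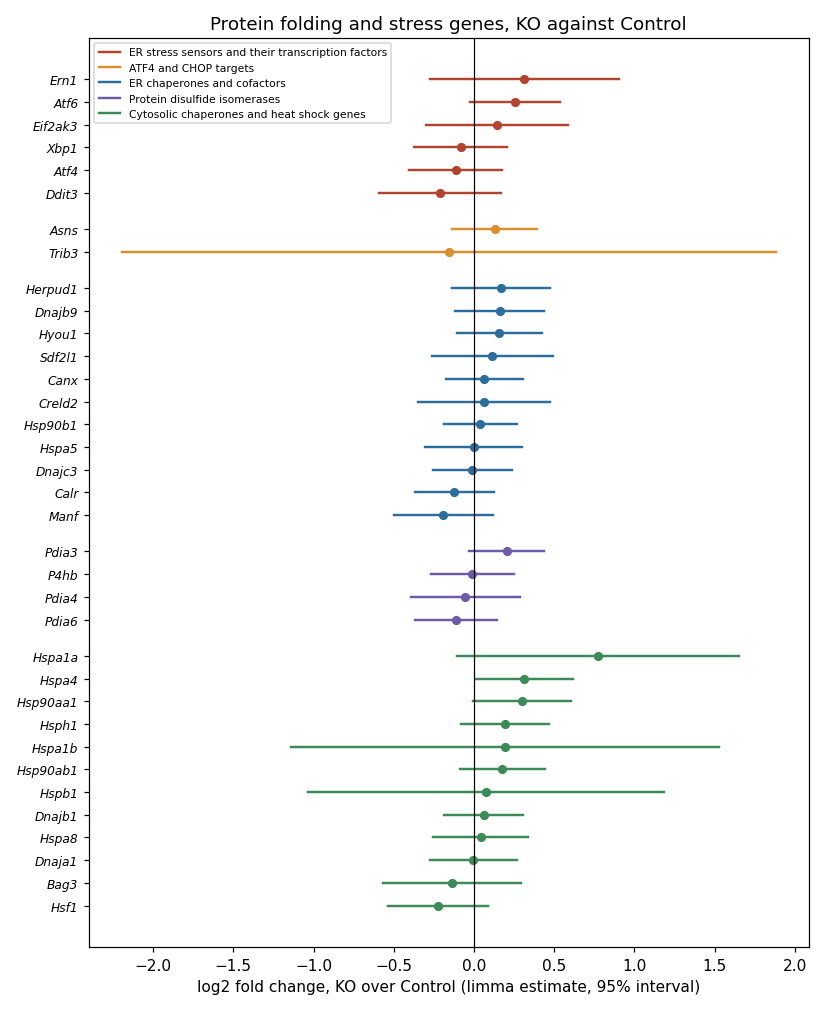
Log2 fold change of KO over Control for each of the 35 genes, as estimated by limma from 4 libraries a group, with the 95% interval as a line and colour for the role of the gene. Nearly all intervals cross 0, those of the ER chaperones stay within 1.5-fold, and the widest belong to Trib3, Hspa1b and Hspb1.

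Levels per length place the folding machinery among themselves. Per kilobase of merged exons (GENCODE M21, GRCm38), the constitutive HSP70 gene Hspa8 was highest at 299.5 ± 74.3 CPM per kb in KO and 285.6 ± 26.6 CPM per kb in Control. Next came the HSP90 genes, Hsp90ab1 (270 ± 48.6 in KO and 236 ± 18.5 CPM per kb in Control), Hsp90aa1 (174 ± 46.3 in KO and 138 ± 13.7 CPM per kb in Control) and Hsp90b1, the ER member of the family (119 ± 6.33 in KO and 116 ± 6.08 CPM per kb in Control). The order was much the same in both groups, with 24 of 35 genes at the same place. Neighbours in it mostly overlapped, with 29 of 34 neighbouring pairs overlapping in KO libraries and 26 of 34 in Control libraries. Hsp90b1 stood apart from the gene below it, Atf4, in both groups. Merged exons pool all isoforms and exceed the longest transcript by differing amounts, so places in the order depend on the length used. Merged exons against longest transcript were 7099 and 3133 bases for Hsf1, 8629 and 5622 for Dnaja1, and 2861 for both in P4hb. The transcription factor mRNAs Atf4 (74.0 in KO and 79.9 CPM per kb in Control) and Xbp1 (33.3 in KO and 34.8 CPM per kb in Control) were at the level of ER chaperones, while the sensors Atf6, Eif2ak3 and Ern1 were at 4.35, 2.29 and 0.537 CPM per kb in KO and at 3.62, 2.01 and 0.419 CPM per kb in Control.

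**Figure D2:**
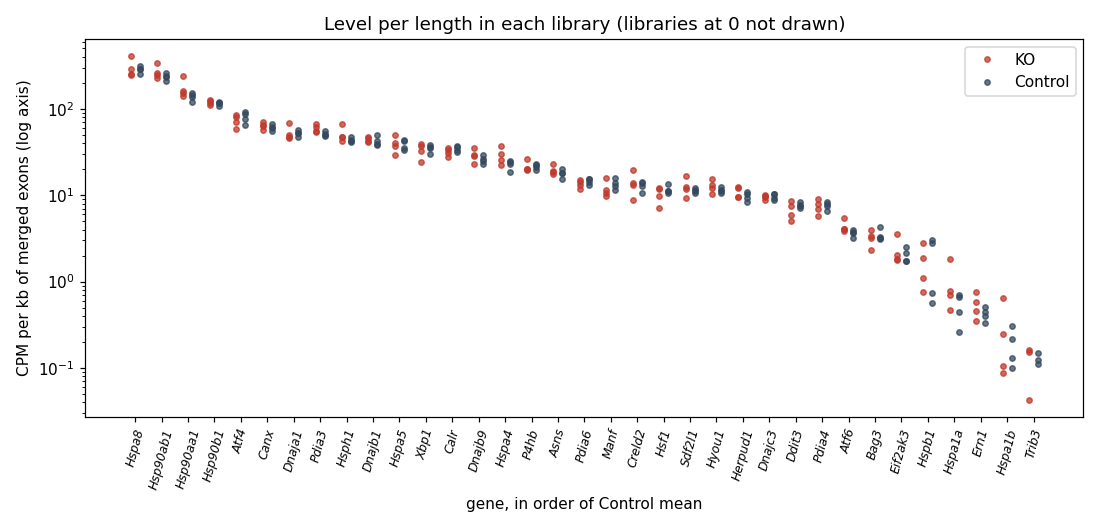
CPM per kilobase of merged exons on a log axis for the 35 genes in order of the Control mean, with each point 1 library, KO left of Control. Levels run from near 300 CPM per kb for Hspa8 to about 0.1 for Trib3, and KO and Control points overlap for every gene. Libraries at 0 (Trib3 in KO replicate 4 and Control replicate 1) are not drawn.

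Genes with copies can lose reads, because reads that align to several places were not counted. Library totals leave out such reads too, and the direction of the error in CPM was not tested. Of all 50-base words of the longest transcript, 66.3% for Hspa1a, 62.3% for Hspa1b, 58.5% for Hsp90aa1, 52.7% for Hspa8, 51.6% for Hspb1 and 28.8% for Dnaja1 also occur in transcripts of other genes. The share was 10.0% or less for the other 29 members. The gene sharing most with Hsp90aa1 was the predicted gene Gm12346, with Hspa8 Gm15459, and with Hspb1 the pseudogene Hsp25-ps1. Exons of Ddit3 overlap those of Mars on the opposite strand (15.2% of Ddit3 exon bases). Whether the counting used strand is not stated, so how reads there were counted is not known. Smaller opposite-strand overlaps touch Hsp90b1, Manf, Eif2ak3, Pdia6 and Dnaja1, and Hspa1a overlaps Gm20481.

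The 3 sensors of the ER showed no difference between the groups beyond the spread, and KO replicate 2 had the highest level of each. That library also had the largest oligodendrocyte (3149 CPM) and astrocyte (1285 CPM) marker sums of the KO libraries. Control libraries reached 3478 and 1351 CPM, and the part of either in the sensor levels was not tested. Atf6 had 35.9, 50.02, 37.5 and 37.1 CPM in KO replicates 1 to 4 and 36.2, 29.6, 34.3 and 33.4 CPM in Control replicates 1 to 4. In KO, replicate 2 was far above the other 3, and the other 3 lay close to the highest Control library. The log2 fold change of Atf6 was 0.27 (SE 0.13, adjusted p by edgeR = 0.507) and 0.13 without KO replicate 2. Over the 16 other fits listed in the last section it ran from 0.13 to 0.31. The unadjusted p of Atf6, by the test of each fit, was under 0.05 in 2 of them, and its adjusted p was 0.345 or more. Eif2ak3, which encodes PERK, had 10.9, 21.4, 10.7 and 12.3 CPM in KO and 15.0, 10.3, 12.8 and 10.4 CPM in Control. Its KO replicate 2 stood far above the other 7 libraries, which overlapped (a log2 fold change of 0.19 with SE 0.27, adjusted p by edgeR = 0.831). Without that library the sign of Eif2ak3 turned, to -0.11. Ern1, which encodes IRE1, had 3.69, 6.18, 2.87 and 4.81 CPM in KO and 4.12, 3.60, 3.28 and 2.69 CPM in Control. The spread of Ern1 was wide in KO, and its log2 fold change of 0.36 (SE 0.27, adjusted p by edgeR = 0.733) became 0.13 without KO replicate 2. Over the 16 other fits it ran from 0.13 to 0.51. For each single gene, above and below, leaving out its highest KO library lowers the fold change largely by construction. Leaving out its lowest KO library raises the fold change in the same way.

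Of the transcription factors downstream of the sensors, 0 passed. Xbp1 had 105, 79.7, 121 and 127 CPM in KO and 118, 124, 113 and 98.01 CPM in Control. KO replicate 2, the highest for the sensors, was the lowest of all 8 libraries for Xbp1 (a log2 fold change of -0.07 with SE 0.17, adjusted p by edgeR = 0.915). Without that library the log2 fold change of Xbp1 was 0.04. Atf4 had 165, 139, 202 and 191 CPM in KO and 215, 178, 153 and 208 CPM in Control. KO replicate 2 was again the lowest of the 8 for Atf4 (a log2 fold change of -0.11 with SE 0.17, adjusted p by edgeR = 0.844). Without KO replicate 2 it was -0.03. Ddit3, the CHOP gene, which is scarce in unstressed cells, had 10.1, 14.7, 8.69 and 12.9 CPM in KO and 12.3, 14.3, 12.9 and 13.3 CPM in Control. Control libraries were close together for Ddit3 and KO libraries spread to either side of them (a log2 fold change of -0.19 with SE 0.18, adjusted p by edgeR = 0.789).

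Of the 2 genes best known as targets of ATF4 and CHOP, Asns, asparagine synthetase, had 53.5 ± 6.15 CPM in KO and 48.9 ± 5.36 CPM in Control (n = 4 each), and the groups overlapped (a log2 fold change of 0.13 with SE 0.11, adjusted p by edgeR = 0.789). Trib3, a pseudokinase induced by CHOP, was at the lower limit of measurement, with 16, 4, 14 and 0 reads in KO and 0, 10, 10 and 14 reads in Control. It gave no usable comparison, with an interval from -2.20 to 1.88 on the log2 scale.

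The 11 ER chaperones and cofactors had log2 fold changes between -0.18 and 0.17. Hspa5, which encodes BiP, the HSP70 of the ER and the usual readout of ER stress, had 209, 159, 123 and 171 CPM in KO and 185, 150, 178 and 142 CPM in Control. KO libraries included both the highest and the lowest of the 8 (a log2 fold change of 0.02 with SE 0.18, adjusted p by edgeR = 0.984), and the interval ran from -0.30 to 0.30. Hsp90b1, which encodes GRP94, had 491, 475, 447 and 507 CPM in KO and 487, 474, 476 and 431 CPM in Control. It was the steadiest of the 35 genes, with 1.18 times as much in the highest library as in the lowest (a log2 fold change of 0.04 with SE 0.06, adjusted p by edgeR = 0.939). The lectin chaperones of glycoprotein folding were Canx (calnexin) at 0.07 and Calr (calreticulin) at -0.12 on the log2 scale, and without KO replicate 2 Canx was at -5.89e-05.

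The other 7 ER chaperones and cofactors were between -0.18 and 0.17 on the log2 scale, with edgeR adjusted p of 0.704 or more. Hyou1, a nucleotide exchange factor of BiP, had 92.1 ± 15.4 CPM in KO and 81.7 ± 5.55 CPM in Control (n = 4 each), and Manf, a small ER protein secreted under stress, had 42.0 ± 9.17 CPM in KO and 47.5 ± 6.12 CPM in Control (n = 4 each). Over the 16 other fits the log2 fold change of Manf ran from -0.35 to -0.10, with an adjusted p, by the test of each fit, of 0.243 or more. The BiP co-chaperones Dnajb9 (0.17), Sdf2l1 (0.14) and Dnajc3 (-0.01), the ER-associated degradation gene Herpud1 (0.17) and Creld2 (0.11) made up the rest, as log2 fold changes. KO replicate 4 was the highest of the 8 libraries for 6 of the 11 (54.5%, against 19.2% of all genes tested), and KO replicate 3 the lowest for 5 of the 11 (45.5%, against 16.1%). Sdf2l1 is an example, at 13.2, 13.7, 10.2 and 18.5 CPM in KO and 12.3, 13.6, 11.8 and 12.7 CPM in Control. Without KO replicate 4, the log2 fold change of Sdf2l1 was -0.03, that of Creld2 -0.12, that of Dnajb9 0.06 and that of Dnajc3 0.02. The list then had 6 of 11 positive and a median of 0.006 on the log2 scale, against 8 of 11 and 0.07 with all libraries. Such a fall is largely built in, since that library was the highest for 6 of the 11. Without KO replicate 1, 2 or 3 the median was 0.04, 0.04 and 0.13. KO replicate 4 also held the fewest gene counts and the largest Otp-lineage marker sum (2032 CPM) of the 8 libraries, and the part of either in these levels was not tested.

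Protein disulfide isomerases, which form and rearrange disulfide bonds in the ER, had 1 of 4 on the positive side (3 of 4 without KO replicate 3) and a median of -0.02 on the log2 scale. Pdia3 came nearest to a difference, with 174, 209, 168 and 192 CPM in KO and 172, 154, 161 and 157 CPM in Control. Of its KO libraries 3 lay above every Control library and replicate 3 did not (a log2 fold change of 0.21 with SE 0.08, adjusted p by edgeR = 0.550). P4hb (-0.004), Pdia4 (-0.04) and Pdia6 (-0.11) were close to 0 on the log2 scale. P4hb had 75.2 CPM in KO replicate 2, with 56.4 to 58.0 CPM in the other KO libraries and 56.6 to 65.8 CPM in Control.

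**Figure D3:**
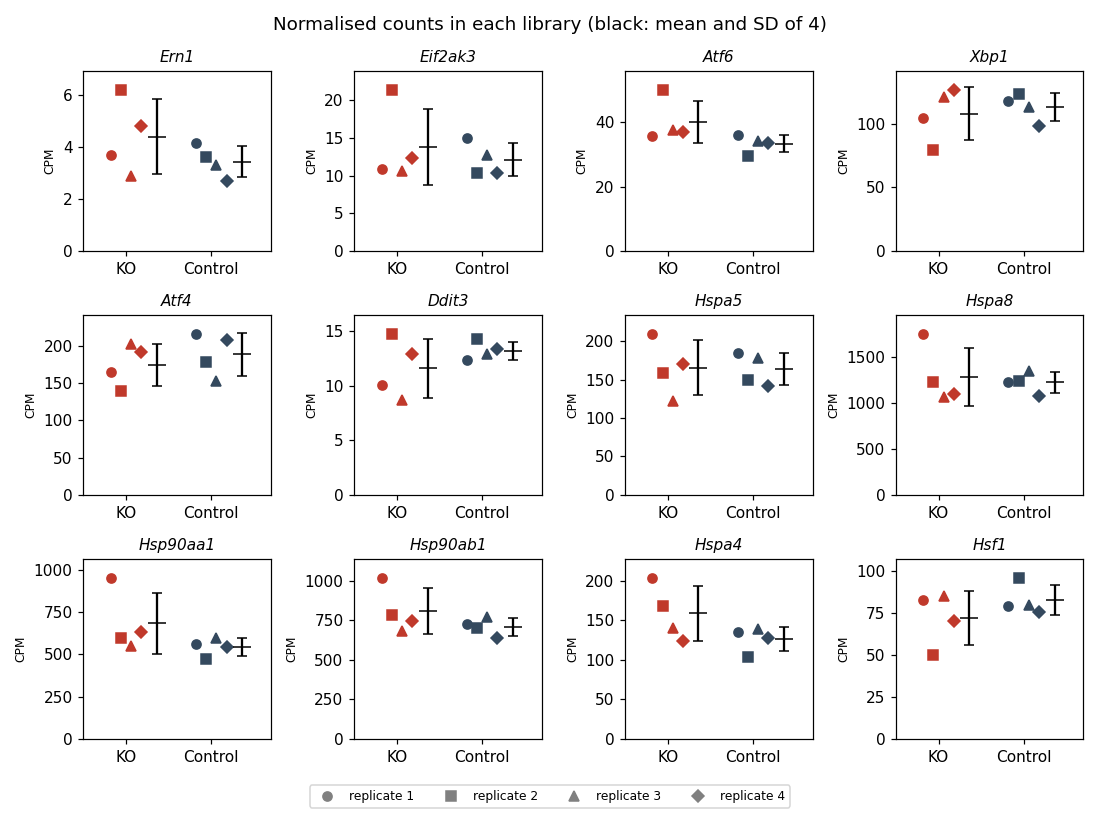
CPM in each library for 12 of the genes, KO left and Control right, with a symbol for each replicate and the mean and SD of 4 in black. KO replicate 2 is the highest for Ern1, Eif2ak3 and Atf6, and KO replicate 1 for Hspa5, Hspa8, Hsp90aa1, Hsp90ab1 and Hspa4. The groups overlap in every panel.

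Among the cytosolic chaperones, 9 of 12 had a positive fold change, the median was 0.13 on the log2 scale, and KO replicate 1 was the highest library for most of them. Hsp90aa1, the stress-inducible cytosolic HSP90, had 951, 597, 549 and 634 CPM in KO and 563, 470, 597 and 544 CPM in Control. KO replicate 1 was far above the other 7 libraries, which overlapped. The log2 fold change of Hsp90aa1 was 0.33 (SE 0.19, edgeR unadjusted p = 0.0410, adjusted p = 0.442). Without that library, its highest, it was 0.12 (edgeR unadjusted p = 0.336), a change that is largely built in. Over the 16 other fits it ran from 0.12 to 0.42. The unadjusted p of Hsp90aa1, by the test of each fit, was under 0.05 in 9 of them, and its adjusted p was 0.32 or more. Hspa4, an HSP110-type exchange factor of HSP70, had 204, 168, 141 and 123 CPM in KO and 135, 104, 139 and 128 CPM in Control. KO replicates 1, 2 and 3 lay above every Control library and replicate 4 did not. The log2 fold change of Hspa4 was 0.33 (SE 0.18, edgeR unadjusted p = 0.0342, adjusted p = 0.425) and fell to 0.18 without KO replicate 1. Over the 16 other fits it ran from 0.18 to 0.43. The unadjusted p of Hspa4, by the test of each fit, was under 0.05 in 12 of them, and its adjusted p was 0.167 or more.

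The same library stood out for further members. Hspa8, the main HSP70 of unstressed neurons, had 1755, 1231, 1066 and 1099 CPM in KO and 1237, 1242, 1356 and 1078 CPM in Control (a log2 fold change of 0.07 with SE 0.18, adjusted p by edgeR = 0.917). Without KO replicate 1 its log2 fold change was -0.13. Hsp90ab1, the constitutive cytosolic HSP90, had 1018, 784, 684 and 747 CPM in KO and 727, 703, 769 and 636 CPM in Control (a log2 fold change of 0.19 with SE 0.14, adjusted p by edgeR = 0.665). Without KO replicate 1 it was 0.05. Hsph1, another HSP110, had 482 CPM in KO replicate 1, with 306 to 344 CPM in the other KO libraries and 301 to 340 CPM in Control. Dnaja1, an HSP40 co-chaperone, had 585 CPM in KO replicate 1, with 394 to 432 CPM in the other KO libraries and 408 to 497 CPM in Control. KO replicate 1 was the highest of the 8 libraries for 7 of the 12 cytosolic genes (58.3%, against 14.8% of all genes tested). Without it 7 of 12 were positive and the median was 0.03 on the log2 scale. Leaving out the library that is highest for most genes lowers the median largely by construction. Without KO replicate 2, 3 or 4 the median was 0.14, 0.20 and 0.18.

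The other cytosolic members, apart from Hspa1b, had their highest level in other libraries. Hsf1, the transcription factor, had 82.9, 49.99, 85.1 and 70.0 CPM in KO and 79.2, 95.7, 79.8 and 75.8 CPM in Control (a log2 fold change of -0.20 with SE 0.19, adjusted p by edgeR = 0.706). KO replicate 2 was the lowest library for Hsf1, as for Xbp1, Atf4, Manf and Bag3. Dnajb1, the inducible HSP40, had 141 ± 10.2 CPM in KO and 136 ± 16.0 CPM in Control (n = 4 each), and Bag3, an HSP70 co-chaperone of selective autophagy, had 8.20 ± 1.71 CPM in KO and 8.93 ± 1.47 CPM in Control (n = 4 each). Hspb1, a small heat shock protein, was low and uneven in both groups, at 1.13, 0.781, 1.93 and 2.90 CPM in KO and 2.89, 0.753, 0.582 and 3.09 CPM in Control.

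The inducible HSP70 pair Hspa1a and Hspa1b lies side by side on chromosome 17 (34969190 to 34972156 and 34956436 to 34959238, both on the minus strand). The 250 bases before their starts, at chr17:34972157-34972406 and chr17:34959239-34959488, are 98.8% identical. They are shown because the genes are near copies of each other, promoter included. Capitals mark the 3 bases that differ.
Hspa1a: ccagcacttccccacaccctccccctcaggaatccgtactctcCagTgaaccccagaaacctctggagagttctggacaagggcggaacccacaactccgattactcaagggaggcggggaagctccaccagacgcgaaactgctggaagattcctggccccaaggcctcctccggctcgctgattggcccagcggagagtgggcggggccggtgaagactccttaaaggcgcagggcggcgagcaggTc
Hspa1b: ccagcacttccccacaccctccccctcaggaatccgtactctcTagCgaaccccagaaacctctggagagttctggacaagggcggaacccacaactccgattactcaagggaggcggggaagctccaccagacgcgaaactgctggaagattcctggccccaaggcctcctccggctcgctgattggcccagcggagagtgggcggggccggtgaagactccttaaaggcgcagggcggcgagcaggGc
Hspa1a had 2.10, 2.30, 1.41 and 5.39 CPM in KO and 1.95, 1.32, 0.768 and 2.06 CPM in Control. KO replicate 4 alone was far above the rest, and the log2 fold change of 0.87 (SE 0.51, adjusted p by edgeR = 0.50) was 0.33 without it. Hspa1b had 88, 30, 12 and 8 reads in KO and 50, 12, 14 and 27 reads in Control. Its log2 fold change of 0.53 (SE 0.69, adjusted p by edgeR = 0.848) was -0.37 without KO replicate 1. The libraries highest for Hspa1a and for Hspa1b were thus not the same, and both genes are uncertain because most of their sequence is shared.

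**Figure D4:**
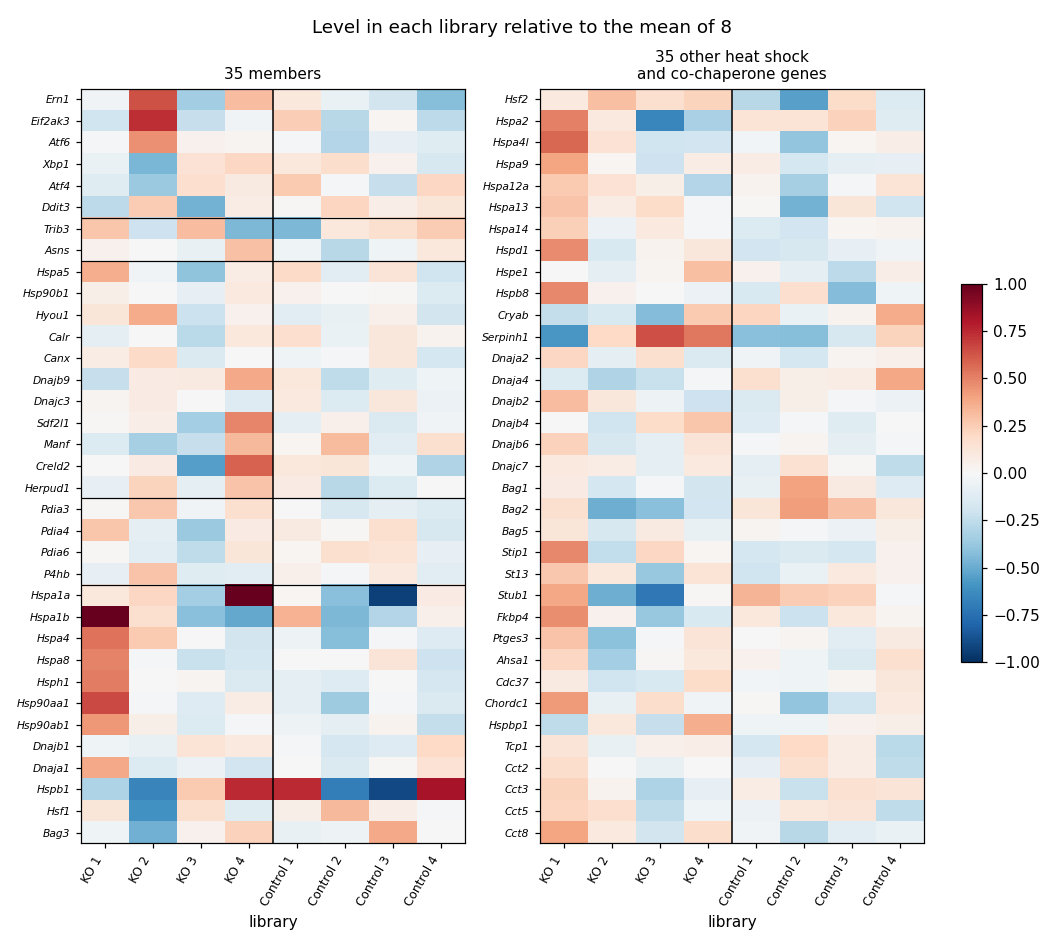
Level of each gene in each library as log2(CPM + 0.5) minus the mean of the 8 libraries, for the 35 members by role (left, lines between roles) and for 35 other heat shock and co-chaperone genes (right), with colours cut at 1 in either direction. The KO 1 column is red for most cytosolic chaperones at left and most genes at right, and the KO 2 column for Ern1, Eif2ak3 and Atf6.

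Further genes of the same pathways showed how far these library differences reach. Of 35 other heat shock and co-chaperone genes, which include mitochondrial and ER members such as Hspd1 and Serpinh1, 0 passed over all genes tested by edgeR, with 1 higher (2.86%, against 6.06% of all genes tested) and 2 lower (5.71%, against 4.53%) at an unadjusted p of 0.05. KO replicate 1 was the highest of the 8 libraries for 23 of the 35 (65.7%, against 14.8% of all genes tested). In this list 26 of 35 fold changes were positive, and 16 of 35 were without that library, with medians of 0.07 and -0.01. That library was left out because it was the highest for most genes, so a fall is largely built in. Without KO replicate 2, 3 or 4 the median was 0.09, 0.11 and 0.06. Under upper-quartile scaling 22 of 35 were positive. The smallest p-values belonged to Bag2 (12.7 ± 2.82 CPM in KO and 17.5 ± 1.86 CPM in Control, log2 fold change -0.47, adjusted p by edgeR = 0.323) and the HSP40 gene Dnaja4 (21.4 ± 1.87 CPM in KO and 27.3 ± 3.05 CPM in Control, log2 fold change -0.35, adjusted p by edgeR = 0.352), and Dnaja4 was the single gene of the list whose groups were separate, against 2.91% of all genes tested that were lower with no overlap. Library KO replicate 1 also held the fewest oligodendrocyte marker counts, at 1708 CPM, against 2317 to 3149 CPM in the other KO libraries, and the most gene counts of the KO libraries. Immediate early genes, which rise within minutes of stimulation or handling, summed to 206 CPM there, against 243 to 297 CPM in the other KO libraries and 201 to 319 CPM in Control. The part of any of these in the chaperone levels was not tested.

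**Figure D5:**
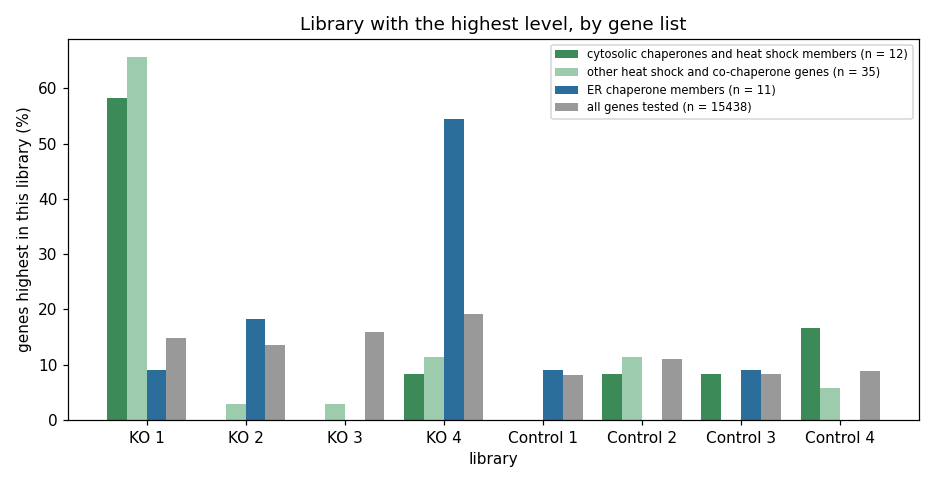
Percentage of the genes of a list that had their highest level in each library, for the cytosolic members, 35 other heat shock and co-chaperone genes, the ER chaperone members and all genes tested. KO 1 holds 58.3% of the cytosolic members and 65.7% of the other heat shock and co-chaperone genes, and KO 4 holds 54.5% of the ER chaperones, where all genes tested give 14.8% and 19.2%.

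Of 36 genes of ER translocation, folding and ER-associated degradation, 0 passed over all genes tested by edgeR, and 0 were higher and 4 lower at an unadjusted p of 0.05 (11.1% lower, against 4.53% of all genes tested). Their median log2 fold change was -0.03, with 14 positive and 22 negative. Mbtps1, which encodes one of the proteases that cut ATF6, had 48.5, 61.6, 48.8 and 41.2 CPM in KO and 68.9, 74.0, 68.0 and 54.0 CPM in Control. Control replicate 4 alone overlapped with KO libraries (a log2 fold change of -0.40 with SE 0.16, adjusted p by edgeR = 0.283). Mbtps2, which encodes another, had 24.5 ± 5.80 CPM in KO and 23.1 ± 1.44 CPM in Control (a log2 fold change of 0.09 with SE 0.18, adjusted p by edgeR = 0.904). Txndc5, a disulfide isomerase, had 32.5 ± 5.68 CPM in KO and 41.4 ± 4.59 CPM in Control (a log2 fold change of -0.35 with SE 0.16, adjusted p by edgeR = 0.373). The signal peptidase subunit gene Spcs3 was the single gene of the 36 with no overlap (2.91% of all genes tested were lower with no overlap), at 55.2 ± 2.56 CPM in KO and 66.1 ± 4.58 CPM in Control (a log2 fold change of -0.26 with SE 0.06, adjusted p by edgeR = 0.411), and it was chosen for naming after its values were seen.

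Of 27 genes of the integrated stress response, the branch that ATF4 serves, 0 passed over all genes tested by edgeR, and 1 was lower and 0 higher at an unadjusted p of 0.05, where 4.53% of all genes tested were lower and 6.06% higher. The median log2 fold change was 0.06. Without 1 library it ran from -0.003 (KO replicate 1) to 0.10 (Control replicate 1). It was also near 0 without KO replicate 4 (0.009), Control replicate 2 (0.009) or Control replicate 4 (0.011). KO replicate 1 was the highest library for 4 of the 27 (14.8%, against 14.8% of all genes tested). Sars, seryl-tRNA synthetase, had 69.3 ± 11.2 CPM in KO and 83.2 ± 3.21 CPM in Control (a log2 fold change of -0.26 with SE 0.12, adjusted p by edgeR = 0.467). Chac1, a glutathione-degrading enzyme induced by ATF4, had 15.9 ± 2.60 CPM in KO and 13.0 ± 0.708 CPM in Control (a log2 fold change of 0.29 with SE 0.12, adjusted p by edgeR = 0.551).

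The members varied more among KO libraries than among Control libraries. The coefficient of variation was larger in KO for 32 of the 35 (91.4%), where it was for 71.4% of all genes tested. Across all 8 libraries the highest was under 1.5 times the lowest for 11 genes and at least 2 times for 8, counting Trib3 with libraries at 0. The Spearman correlation of transcript GC content with the deviation of a library from the others of its group ran from -0.38 to 0.30 over the 35 genes. It ran from -0.088 to 0.081 over the 14870 genes tested that had a transcript sequence. A correlation over 35 genes scatters far more than one over 14870, so the widths of these ranges cannot be compared, and genes share libraries and depth.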

How the data were processed

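The authors deposited raw read counts per gene symbol, 1 table for each of 8 libraries, for which the submitters' processing notes name TopHat2 2.0.9, HTSeq, DESeq2 and the build mm10. For the annotation, strand setting and filters, nothing is given in the sources used here. The 92 spike-in rows and 5 counter rows were left out. Alignments that were not unique made up 63.3% to 81.9% of counted records, rows in no feature 7.98% to 8.98%.

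Genes were filtered with filterByExpr (minimum count 10, total 15), scaled by TMM and fitted with edgeR 4.0.16 in R 4.3.3 (robust quasi-likelihood, KO against Control, no covariate, Benjamini-Hochberg over all genes tested, threshold 0.05), after a check on simulated counts. DESeq2 1.42.0 was an alternative, and limma 3.58.1 (trend, log2 CPM with prior count 2), added after seeing the data, gave the 95% intervals. CPM are mean ± SD, and SE is that of the difference of mean log2 CPM. No library repeated another (chi-square per degree of freedom 25.9 or more over 28 pairs). Amplified copies carry no molecular identifiers. The members, lists and tests were chosen with earlier results of these data known. Values in all libraries are given for the sensors and their factors, Hspa5, Hspa8, Hsp90aa1, Hsp90ab1, Hsf1, Hspa1a, Hspa1b and members with an unadjusted p under 0.05 or no overlap, and for a few more chosen after their values were seen. Of each further list the 2 genes of smallest p are named, with Spcs3 and Mbtps2 added.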

Additional observations from a re-analysis of the deposited data

Results flagged for a closer look

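Atf6 in KO replicate 2, at 50.02 CPM, stood far from the other 3 KO libraries at 35.9 to 37.5 CPM, with a gap of 0.871 of the group's range. P4hb in the same library, at 75.2 CPM, stood far from 56.4 to 58.0 CPM in the others, with a gap of 0.904 of the range. These were 2 of 70 sets of 4 libraries, where chance gives about 1 in 20 (3.5 of 70).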

How the results depend on the processing

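The count of members past the threshold stayed at 0, and so did that of the further pathway genes, under DESeq2, limma (added after seeing the data), 3 other scalings, 2 other filters, the replicate block and each fit without 1 library. The median log2 fold change of the members ran from 0.02 to 0.13 over these, against -0.004 to 0.03 for all genes tested, and members at an unadjusted p under 0.05 numbered 0 to 5. Over all genes, 198 were called with DESeq2 (119 higher and 79 lower), 26 with total counts only (5 lower), 46 with no filter and 65 with the replicate block (22 lower), against 40 (30 higher and 10 lower). Leaving out 1 library gave 14 to 53 (12 to 36 higher, 2 to 17 lower), with fewer than 40 by over 1.5 times without KO replicate 2 (26) and without Control replicates 1 (19), 2 (17), 3 (26) and 4 (14). The cause was not tested. The replicate block changed no call of a member. The labels do not say that same-numbered libraries are pairs, so the numbers are not taken as pairs. The correlation of deviations between same-numbered libraries lay between -0.048 and 0.10. It was not set against that of other pairs, so it does not decide whether they are paired. Trib3 had at most 16 reads in any library, and its counts allow no comparison.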
